A study of Mus musculus with 24 samples.

Results

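The beta2 integrin genes are the 5 listed genes Itgax, Itgam, Itgad, Itgal and Itgb2, of 55487 in the count table, picked by symbol in the authors' annotation. Itgad was included because of its KO against WT values on day 10 and its place beside Itgax, so that contrast is given for all 5 genes without a test. The libraries are polyadenylated RNA from bone-marrow-derived dendritic cells (BMDC), cells grown from mouse marrow in GM-CSF medium, taken after 7, 8, 9 or 10 days in culture, with 3 mice per genotype and day, 8 groups and 24 libraries. WT stands for ARPC4 Flox/Flox CD11c-Cre -/- and KO for ARPC4 Flox/Flox CD11c-Cre +/-. Both genotypes carry the floxed Arpc4 alleles; Arpc4 encodes a subunit of the Arp2/3 complex, which nucleates branched actin. Marrow came from males and females aged 8 to 10 weeks, cells were replated on days 4 and 7, and only floating cells were kept, of which more than 90% stained for CD11c per the labels. The controls lack Cre, so an effect of the CD11c-Cre transgene and one of the Arpc4 deletion cannot be told apart, and the labels do not name the CD11c-Cre line. Because CD11c is the product of Itgax, the promoter that drives Cre belongs to 1 of the genes described here.

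Beta2 integrins are leukocyte adhesion receptors made of a shared beta chain, CD18, encoded by Itgb2, and 1 of several alpha chains. Itgal encodes CD11a, which forms LFA-1 and binds ICAMs; Itgam encodes CD11b, which forms Mac-1 or complement receptor type 3; Itgax encodes CD11c, the usual surface marker of dendritic cells; and Itgad encodes CD11d, best known from splenic red pulp macrophages and other tissue macrophages. Chemokine and antigen receptor signals switch the receptors to a high-affinity form through talin and kindlin, and the cytoplasmic tails couple to actin.

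The 4 alpha chain genes lie on mouse chromosome 7 and Itgb2 on chromosome 10, all on the plus strand, by GENCODE M21 on GRCm38. Itgam (ENSMUSG00000030786.18) spans chr7:128062640-128118491, Itgax (ENSMUSG00000030789.9) chr7:128129547-128150657 and Itgad (ENSMUSG00000070369.13) chr7:128154376-128223816. Itgax starts 11.1 kb after the end of Itgam, and Itgad 3.7 kb after the end of Itgax. Itgal (ENSMUSG00000030830.18) stands apart at chr7:127296260-127335138, 727.5 kb before Itgam, and Itgb2 (ENSMUSG00000000290.13) is at chr10:77530252-77565708.

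Itgax and Itgad are close copies in part, which bears on every Itgad count below because Itgax was about 1067 times as abundant by median TPM. Of the 100-base words of Itgad transcript sequence, 146 of 4605 (3.17%) also occur in that of Itgax, and 8.43% of the 50-base words do. None of the 30-base words of Itgad was found in Itgam, Itgal or Itgb2, and the longest identical run was 16 bases with Itgam and 16 with Itgal. The longest run shared with Itgax is 188 bases of coding sequence that joins Itgad exons 12 to 14 and Itgax exons 11 to 13, and lies within chr7:128189340-128189789 in Itgad, introns included. Reads were 100 bases from each end per the labels, so a read inside this run alone could come from either gene. The run is shown as the longest stretch in which a read alone fits both genes, though a mate read outside it may separate them. It is in lower case throughout since all of it is identical.
Itgad and Itgax shared coding run: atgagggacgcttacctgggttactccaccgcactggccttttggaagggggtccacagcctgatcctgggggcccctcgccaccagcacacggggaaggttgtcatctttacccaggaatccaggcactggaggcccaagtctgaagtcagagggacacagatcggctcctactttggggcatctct

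RefSeq promoter windows (GRCm38.p6, 250 bases before to 50 after the start, plus strand) were at hand for Itgam and Itgax; Itgad, Itgal and Itgb2 are named only. They are shown because Itgax is the gene whose promoter names the Cre driver, and Itgam its neighbour. Capitals mark letters of 3 motifs searched on both strands: the PU.1 core GAGGAA, the Runx core TGTGGT and the Sp1 core GGGCGG, each with its reverse complement and none overlapping another here. The Itgam window is chr7:128062390-128062689 and the Itgax window chr7:128129300-128129599.
Itgam promoter: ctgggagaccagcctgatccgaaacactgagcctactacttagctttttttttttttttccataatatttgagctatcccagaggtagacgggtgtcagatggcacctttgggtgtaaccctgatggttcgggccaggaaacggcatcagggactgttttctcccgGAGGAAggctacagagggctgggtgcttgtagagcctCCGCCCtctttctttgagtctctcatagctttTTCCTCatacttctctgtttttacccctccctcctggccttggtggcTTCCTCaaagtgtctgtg
Itgax promoter: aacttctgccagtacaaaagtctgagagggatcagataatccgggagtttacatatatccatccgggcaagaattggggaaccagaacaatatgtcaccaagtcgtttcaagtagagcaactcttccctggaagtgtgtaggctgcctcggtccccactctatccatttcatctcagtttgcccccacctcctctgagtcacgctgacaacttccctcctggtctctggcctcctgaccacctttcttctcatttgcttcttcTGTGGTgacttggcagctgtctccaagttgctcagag
The Itgam window held 3 PU.1 cores and 1 Sp1 core, and the Itgax window 1 Runx core. Of 32851 promoters in the same table, 28.3% held the PU.1 core, 16.8% the Runx core and 35.7% the Sp1 core, so such matches are common and only describe the letters.

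Libraries held 19952047 to 31049798 counts. Arpc4 was lower in KO than in WT without overlap on each of the 4 days, at 155 to 231 CPM (counts scaled to library size with TMM factors) over the 12 KO libraries and 188 to 270 over the 12 WT libraries; its log2 fold changes of -0.28 to -0.18 did not pass the threshold of 0.05 on edgeR's adjusted p. Of all genes, 14.2% on day 7 and 6.47% on day 9 were lower in KO without overlap. Such shares are not given for days 8 and 10, so nothing is read from the separation of Arpc4. The counts are per gene, so reads from Arpc4 exons outside the floxed part are included. In each group 1 library had Ddx3y, a Y-linked gene, above Xist: always mouse 63 in WT, but in KO mouse 64 on days 7 and 9, mouse 68 on day 8 and mouse 67 on day 10. The KO numbers therefore do not follow one animal over the days. Below, leaving out a KO number means leaving out the 4 libraries that carry it, which are not from 1 animal. Of the dendritic cell markers, Cd74 stood at 778 to 4040 CPM, while Flt3 was at 0.762 to 6.70 CPM and Zbtb46 at 2.15 to 23.7 CPM. Markers of T, B, NK and erythroid cells summed to at most 10.7 CPM each in every library.

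Transcript levels, compared per length as the authors' TPM, kept 1 order in all 24 libraries: Itgb2, then Itgax, Itgam, Itgal and Itgad. Itgb2 ran from 1841 to 2830 TPM with a median of 2395, placing it 26th by average count level among the 14535 genes tested. Itgax ran from 474 to 1117 TPM (median 720.0) and Itgam from 241 to 527 (median 415). The CD11a gene Itgal was lower, at 52.5 to 118 TPM (median 71.8). Itgad was far below, at 0.10 to 2.62 TPM (median 0.675), which rests on 3 to 108 counts per library. All 5 genes passed the filter on low counts, and Itgad ranked 11478th.

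Over the 8 groups the highest group mean was 1.77 times the lowest for Itgax, 1.65 times for Itgb2, 1.46 for Itgam and 1.36 for Itgal. For Itgad it was 9.64 times, where the highest mean is that of KO on day 10, the value that put the gene among the members, so this ratio is a description and no contrast with the other genes is drawn from it. The plot of CPM by library shows the values of all 5.

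**Figure D1:**
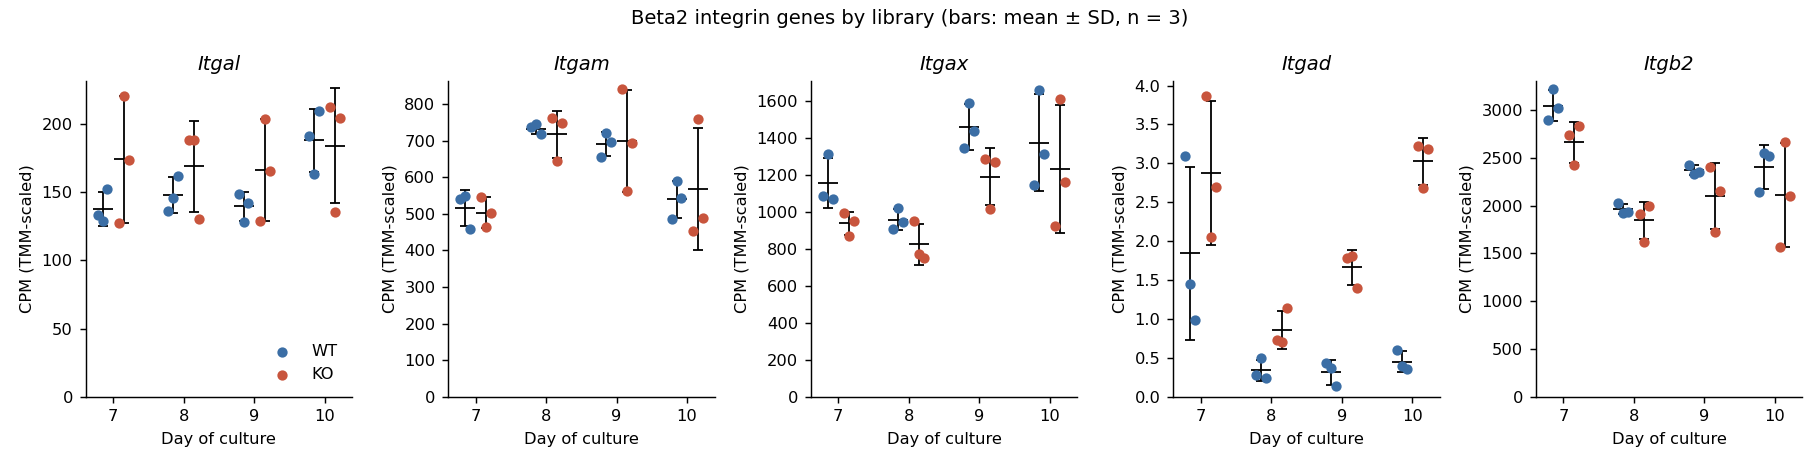
CPM of each beta2 integrin gene by day of culture, with blue points for WT and red points for KO libraries and black bars for mean ± SD of 3. Each panel has its own linear axis from 0; on day 10 the KO libraries of Itgad sit between 2.68 and 3.22 CPM and the WT libraries between 0.352 and 0.605 CPM.

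Itgad was chosen for its genotype difference on day 10, and days 7, 8 and 9 are given beside that value without an order being read from them. On day 10, the contrast that put it among the members, it stood at 3.22, 2.68 and 3.18 CPM in the KO libraries (108, 81 and 108 counts) and at 0.605, 0.392 and 0.352 CPM in WT (17, 10 and 10 counts). The KO mean of 3.03 ± 0.301 CPM (SD, n = 3) against 0.450 ± 0.136 gave a log2 fold change of 2.74 (SE 0.39), with 0.0138% of genes past the threshold and 5.47% higher without overlap in that contrast, from which nothing is read because it chose the gene. Over the alternative analyses of the same libraries this value ran from 1.32, on log2(TPM + 1), a scale that understates changes of so low a gene, to 3.09.

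On day 9, Itgad stood at 1.78, 1.80 and 1.40 CPM in KO and at 0.434, 0.372 and 0.136 CPM in WT, without overlap (7.62% of genes were higher without overlap). The log2 fold change was 2.40 (SE 0.44), but edgeR's adjusted p was 0.11. Over the alternatives it ran from 0.00128 to 0.62, and 3 of 15 passed: no filter on low counts, Xist as a covariate and the DESeq2 Wald test. With WT libraries at 3 to 9 counts, the call depended on these settings. On day 8, values of 0.735, 0.704 and 1.14 CPM in KO and 0.280, 0.498 and 0.239 in WT did not overlap either (4.4% of genes), with a log2 fold change of 1.32 (SE 0.44, adjusted p = 0.64). On day 7 the groups overlapped, at 3.87, 2.06 and 2.70 CPM in KO and 3.09, 1.45 and 0.984 in WT, and the log2 fold change was 0.64 (SE 0.35, adjusted p = 0.38). The day 7 value ranged from 0.34 without WT mouse 66 to 1.25 without WT mouse 63, and was 0.38 without KO number 64. In the 16 libraries with Xist above Ddx3y, Itgad was at 0.97, 0.96 and 2.65 on days 7, 8 and 9 (edgeR adjusted p 0.149, 0.35 and 0.0887).

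None of the 5 members passed in KO against WT with edgeR on days 7, 8 or 9, where 1.45%, 0.00688% and 0.00688% of all genes did. At an unadjusted p under 0.05 the counts were 0, 1 and 1, DESeq2 called 0, 0 and 1, and limma on log2(TPM + 1) called 0 on each day. The single member was Itgad each time. Here and below, shares of all genes are not given for unadjusted, DESeq2 or limma counts, so nothing is read from such counts about a group of genes. The day 8 and day 9 comparisons use other libraries than day 10, but they carry the same mouse numbers and were known when Itgad was chosen.

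Itgad fell between days 7 and 8 in both genotypes. The WT mean was 1.84 ± 1.11 CPM (SD, n = 3) on day 7 and 0.339 ± 0.139 on day 8, which is -2.44 on the log2 scale (SE 0.42, edgeR adjusted p = 9.78e-05). The KO mean was 2.88 ± 0.920 CPM and then 0.860 ± 0.244, which is -1.75 on the log2 scale (SE 0.37, adjusted p = 0.000696). Both calls held in 15 of 15 alternatives in which Itgad was kept. Their size depended on single libraries: the WT value was -1.69 without WT mouse 63, whose 3.09 CPM on day 7 stood above the other 2, and -2.94 without WT mouse 65, and the KO value ran from -2.03 to -1.38. From day 8 on, WT libraries were at 0.136 to 0.605 CPM. Changes of Itgad into day 10 use the libraries that chose the gene in either genotype, so they are given without a test, as -2.03 on the log2 scale from day 7 to day 10 in WT.

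The KO mean was 1.66 ± 0.226 CPM at day 9, above day 8 without overlap (8.51% of genes were higher without overlap), but the step of 0.96 on the log2 scale did not pass (SE 0.37, edgeR adjusted p = 0.17). At day 10 it was 3.03 ± 0.301 CPM, which as a description is 0.86 above day 9 without overlap (5.63% of genes) and 0.07 above day 7. The change from day 7 to day 9 was higher in KO than in WT by 1.76 on the log2 scale (SE 0.56), which did not pass over all genes (adjusted p = 0.92, 5 of 14535 genes or 0.0344% passing). For day 7 to day 8 the same difference was 0.69 (SE 0.56, edgeR adjusted p = 0.999, with 0.0275% passing). Its sign was not stable, at -0.055 without WT mouse 63 and 1.20 without WT mouse 65. It was -0.0145 in the 16 libraries with Xist above Ddx3y and -0.038 on log2(TPM + 1). In order of group means, KO on day 9 lay above KO on day 8 without overlap. KO on day 8 lay above WT on day 10 without overlap, which rests on the libraries that chose the gene and is given as a description. KO on days 10 and 7 and WT on day 7 overlapped as neighbours, as did WT on days 10, 8 and 9.

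Relative to its neighbour, Itgad had 0.263 ± 0.0914 counts per 100 Itgax counts in KO on day 10 (SD, n = 3) and 0.0344 ± 0.0160 in WT. On day 9 the ratios were 0.142 ± 0.0340 and 0.0217 ± 0.0115. On both days KO had the lower mean Itgax CPM and the higher mean Itgad CPM. In the plot of the alpha chain balance the KO libraries lie above the WT libraries on days 8 and 9, and on day 10, where the choice of Itgad fixes it.

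Several other genes are annotated inside Itgad. Cox6a2, a subunit of cytochrome c oxidase known from muscle and heart, lies within Itgad, as do the predicted genes Gm39091 and Gm44850 and 4931431B13Rik. The library kits kept strand, but the strand setting of the counting is not given in the sources used here, so reads of Itgad and of genes on the other strand cannot be told apart. Cox6a2 stood at 5.18, 6.98 and 14.3 CPM in WT on day 7 and at 1.36, 1.93 and 2.14 in KO, or -2.29 on the log2 scale (SE 0.41, edgeR adjusted p = 0.0091). From day 7 to day 8, the step in which Itgad fell, mean Cox6a2 went from 8.83 to 0.549 CPM in WT (-3.99 on the log2 scale, edgeR adjusted p = 9.62e-07) and from 1.81 to 0.832 CPM in KO (-1.12, adjusted p = 0.052); its part in the Itgad counts was not tested. On day 10 it was at 0.539 ± 0.220 CPM in KO and 0.536 ± 0.175 in WT. Gm39091 had 0 counts in the 12 WT libraries together and 26 in the 12 KO libraries, with 1 to 11 per KO library on day 10. The totals were 6 and 42 for 4931431B13Rik, and 4 and 5 for Gm44850. Gm39091 and 4931431B13Rik were read after their values were seen, both were below the filter, and neither was tested.

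Of the 18 other genes tested within 300 kb of Itgax, Cox6a2 on day 7 was the only one to pass in KO against WT with edgeR on any of the 4 days (1.45%, 0.00688%, 0.00688% and 0.0138% of all genes passed on days 7 to 10), and without WT mouse 66, whose library held the 14.3 CPM, 0 passed. On days 8, 9 and 10, where 0 passed, the counts at an unadjusted p under 0.05 were 1, 0 and 2, and DESeq2 and limma called 0. Their log2 fold changes ran from -0.37 to 0.94 on day 9 and from -0.30 to 1.34 on day 10, the upper value on both days being Gm26690, at 0.189 and 0.160 mean CPM in KO. Itgad stood at 2.40 on day 9, a value known when it was chosen, and its day 10 value of 2.74 chose it. Both are plotted with the other genes as a description, and Itgad is not ranked against them. Itgax and Itgam, which flank it on one side, lay between -0.30 and 0.07 over the 4 days.

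**Figure D2:**
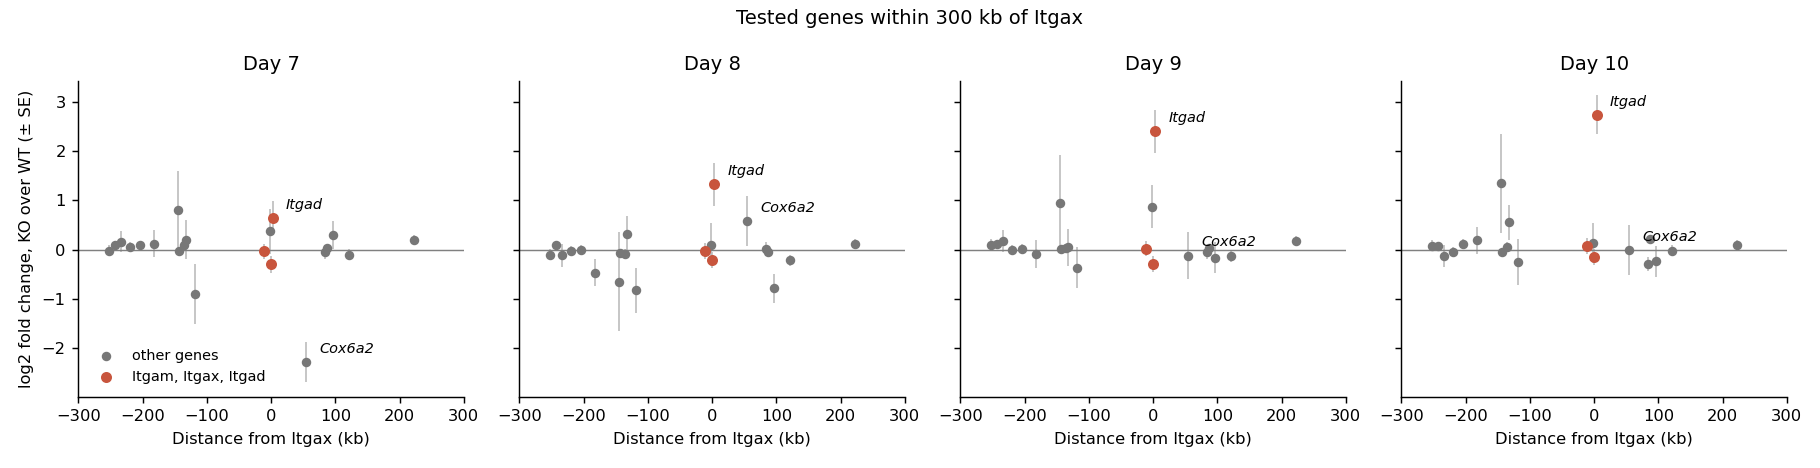
Log2 fold change of KO over WT (± SE, edgeR) for tested genes within 300 kb of Itgax against their distance from it, 1 panel per day, with Itgam, Itgax and Itgad in red. Itgad is at 0.64 and Cox6a2 at -2.29 on day 7. The day 10 value of Itgad, 2.74, chose the gene and is shown as a description.

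Itgb2, the shared beta chain gene, fell from day 7 to day 8 in both genotypes. WT libraries went from 2898, 3219 and 3019 CPM to 2021, 1924 and 1936, or -0.64 on the log2 scale (SE 0.15, edgeR adjusted p = 0.00148). KO libraries went from 2739, 2420 and 2829 CPM to 1916, 1621 and 1993, or -0.53 on the log2 scale (SE 0.15, adjusted p = 0.00612). Days did not overlap in either genotype (30% and 23.6% of genes were lower without overlap), and each call held in all 16 alternatives. The later steps and the whole span from day 7 to day 10 did not pass, at -0.34 in WT (adjusted p = 0.071) and -0.34 in KO (adjusted p = 0.077); the WT span passed in 3 of 16 alternatives, with only the libraries compared (0.0179) and without KO number 64 (0.0311) or 67 (0.0115), and the KO span in 2, without KO number 67 (0.000641) and in the 16 libraries with Xist above Ddx3y (0.0178). The step of 0.27 from day 8 to day 9 in WT passed with only the libraries compared (0.00933). KO means were below WT means on each day, by 0.09 to 0.19 on the log2 scale. The day 10 value of -0.19 ran from -0.46, in the 16 libraries with Xist above Ddx3y, to 0.0057 without KO number 64, and was -0.38 without KO number 67. The day 8 sign also flipped without KO number 67 (0.0077). On day 7 the groups did not overlap (14.2% of genes were lower without overlap), and the 95% interval was -0.50 to 0.11.

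Itgam, the CD11b gene, moved the other way between days 7 and 8. It rose from 541, 549 and 459 CPM to 736, 744 and 717 in WT, or by 0.50 on the log2 scale (SE 0.16, edgeR adjusted p = 0.0125). In KO it rose from 545, 463 and 503 CPM to 760, 643 and 748, or by 0.51 (SE 0.16, adjusted p = 0.0120). The WT call was lost when any 1 WT mouse was left out (adjusted p 0.0567 to 0.113), and the KO call without KO number 68 (0.0791). Its genotype differences were the smallest of the 5, with log2 fold changes of -0.04, -0.03 and 0.02 on days 7, 8 and 9 and 95% intervals within -0.37 to 0.34; the sign on day 7 and day 8 flipped on TPM. On day 10 Itgam was at 454, 759 and 490 CPM in KO and at 486, 589 and 542 in WT, so 1 KO library, numbered 67, stood above the rest. With the 4 libraries numbered 67 left out, the lower KO level on day 10 than on day 9 passed (edgeR adjusted p = 0.00110), as did that in WT (0.0214), which also passed with only the libraries compared (0.0428). The day 9 and day 10 libraries of that number differ in Ddx3y and so are not from 1 animal.

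Itgax, the CD11c gene, rose from day 8 to day 9 in WT, where it stood at 907, 1020 and 947 CPM on day 8 and at 1348, 1590 and 1440 on day 9 without overlap (17.4% of genes), or 0.61 on the log2 scale (SE 0.17, edgeR adjusted p = 0.037). The KO values of 953, 771 and 750 CPM on day 8 and 1287, 1013 and 1270 on day 9 did not overlap either (8.51% of genes), with a log2 fold change of 0.53 (SE 0.17, adjusted p = 0.085); 4 of 16 alternatives passed there. The change into day 8 did not pass in either genotype, at -0.27 in WT (adjusted p = 0.19) and -0.19 in KO (0.39), and the KO sign flipped on TPM. In WT the days did not overlap (30% of genes were lower without overlap). The WT change passed with only the libraries compared (edgeR adjusted p = 0.0225). The WT call from day 8 to day 9 was lost without any 1 WT mouse (adjusted p 0.22 to 0.25), without KO number 68 (0.067) and in the 16 libraries with Xist above Ddx3y (0.055). Itgax was lower in KO in mean on every day: the log2 fold changes were -0.30, -0.22 and -0.29 on days 7, 8 and 9 (edgeR adjusted p 0.38 to 0.93), and -0.16 on day 10. The day 10 value ran from -0.51, in the 16 libraries with Xist above Ddx3y, to 0.03 without KO number 64, and was 0.01 without WT mouse 65 and -0.39 without KO number 67. Groups did not overlap on days 7 and 9, where 14.2% and 6.47% of genes were lower without overlap. The 95% intervals reached from -0.65 to 0.13 on the log2 scale over these 3 days, with 0 inside each. From day 7 to day 10 the KO change of 0.39 (edgeR adjusted p = 0.069) passed in 4 of 16 alternatives: no filter on low counts (0.0427), both TPM scales (0.000743 and 0.000717) and without KO number 64 (0.0207).

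Itgal, the CD11a gene, had no call with edgeR under the settings used for the values given here. WT values went from 133, 128 and 152 CPM on day 7 to 191, 163 and 209 on day 10 without overlap (25% of genes), or 0.45 on the log2 scale (SE 0.20, edgeR adjusted p = 0.079), and 8 of 16 alternatives passed. Those were no filter on low counts (0.0321), Xist as a covariate (0.0294), only the libraries compared (0.00462), both TPM scales (0.0188 and 0.0181), the libraries without KO number 64 (0.0311) or 67 (0.0148), and the 16 libraries with Xist above Ddx3y (0.0417). The WT step from day 9 to day 10 was 0.43 on the log2 scale (SE 0.20, edgeR adjusted p = 0.26) and passed with only the libraries compared (0.0313). KO values were more spread, at 127, 221 and 174 CPM on day 7 and 212, 135 and 204 on day 10. That KO change passed without KO number 67 (edgeR adjusted p = 0.0395) and not with it (0.78). The lowest KO value of Itgal on each of the 4 days, 127, 130, 129 and 135 CPM, was in the library with Ddx3y above Xist, where the others were at 165 to 221. In WT that library was lowest on 1 day and highest on 1 day. For the other members the place of that library varied. Among KO libraries it was highest on 3 of 4 days for each of Itgam, Itgax and Itgb2, and lowest on 1 for Itgax. For Itgad in KO it was highest on 2 days and lowest on 1. Among WT libraries it was lowest on 3 of 4 days for Itgax and highest on 3 of 4 days for Itgad. In WT it was also lowest on 2 days for Itgam, and lowest on 2 and highest on 2 for Itgb2. Some places were near ties, such as Itgax in KO on day 9, at 1287 against at most 1270 CPM. In the 16 libraries with Xist above Ddx3y the KO over WT log2 fold change of Itgal was 0.50 on day 7 (edgeR adjusted p = 0.085), against 0.34 in all libraries (0.42). Whether sex, mouse or cell makeup goes with this was not tested.

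Taken by comparison, 3 of the 5 members passed from day 7 to day 8 in WT and the same 3 in KO: Itgam higher, Itgb2 and Itgad lower. That step also moved much of the transcriptome, with 43.4% of genes past the threshold in WT (21.5% higher, 22% lower) and 42% in KO (21.1% higher, 20.9% lower), and it follows the replating on day 7. From day 8 to day 9 the count was 1 in WT (Itgax; 5.4% of genes, 3.06% higher) and 0 in KO (2.33%; 2 at an unadjusted p under 0.05, 1 by DESeq2 and 1 by limma). From day 9 to day 10 the count is given over the 4 members other than Itgad. It was 0 in WT (3.6% of genes), with 2 unadjusted and 0 by either other tool. In KO it was 0 (0.0963% of genes), with 0 unadjusted and 0 by either. Over the span from day 7 to day 10 the 1 member past the threshold in WT was Itgad, through libraries that chose it, and nothing is read from it (37% of genes, 18.1% lower). The other 4 members gave 0 there with edgeR, with 2 unadjusted, 0 by DESeq2 and 3 by limma. In KO the same 4 members gave 0 over this span (36.8% of genes), with 2 unadjusted, 0 by DESeq2 and 2 by limma. On log2(TPM + 1) the median over genes lay higher than on the TMM scale by 0.22 from day 7 to day 8 in either genotype, and by 0.27 in WT and 0.29 in KO from day 7 to day 10, so changes on the 2 scales are offset by these amounts.

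**Figure D3:**
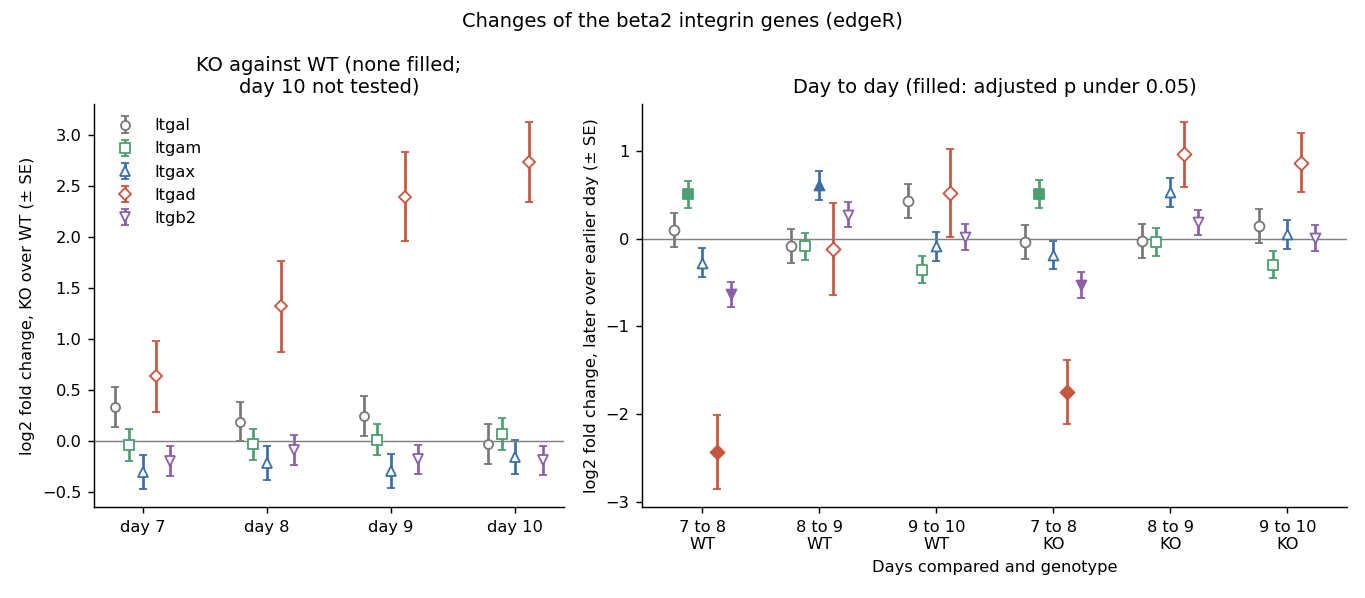
Log2 fold changes (± SE, edgeR) of the 5 genes, for KO over WT by day on the left and for each later day over the day before on the right, where filled symbols passed an adjusted p of 0.05. Itgad at -2.44 and -1.75 and Itgb2 at -0.64 and -0.53 are lower on day 8 than on day 7, and Itgam at 0.50 and 0.51 is higher.

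As a share of the summed TPM of the 4 alpha chain genes, Itgax made up most of the pool and Itgam most of the rest. In WT, Itgax took 65.9% ± 2.07 (SD, n = 3) on day 7, then 54.2% ± 1.23 and 65.6% ± 1.24 over the next 2 days, and 67.5% ± 2.93 at the end. KO means for Itgax were lower in the same order of days, at 60.5% ± 1.37, 50.4% ± 2.19, 60.1% ± 1.55 and 64.1% ± 2.74. Itgam peaked on day 8, at 39.7% ± 1.30 in WT and 42.0% ± 3.24 in KO, against 25.6% ± 1.33 and 28.2% ± 1.80 on day 10. Itgad held 0.178% ± 0.0556 in KO on day 10 and 0.0244% ± 0.0107 in WT. The alpha chains summed to 0.366 of the Itgb2 TPM in WT and 0.371 in KO on day 7, and to 0.535 to 0.603 in every later group. These are transcript shares, not receptor shares.

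**Figure D4:**
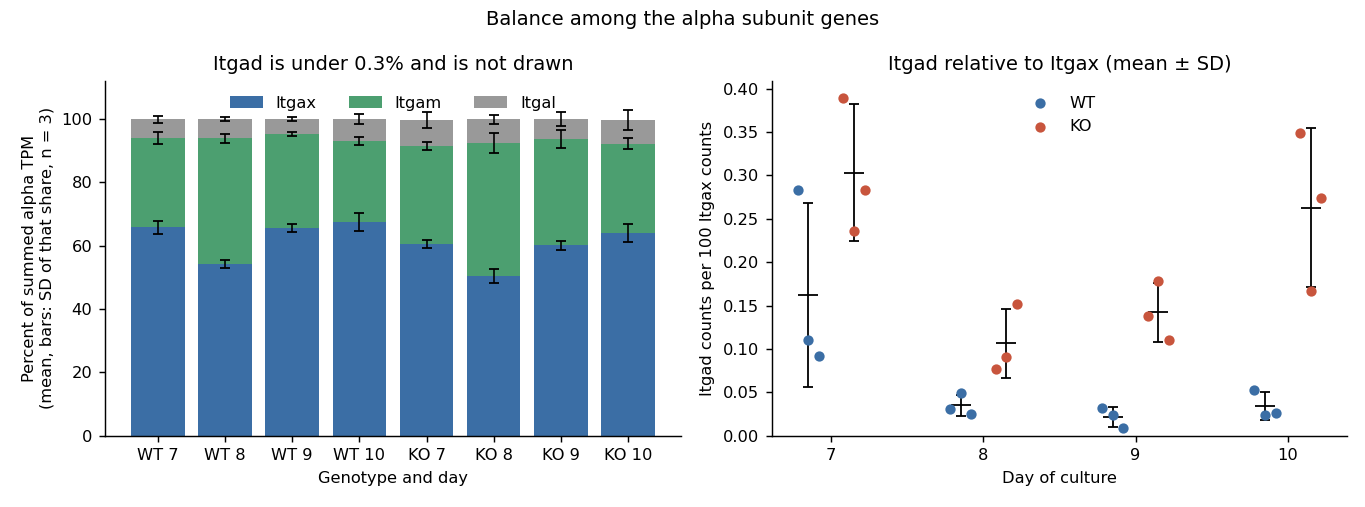
Left, mean share of the summed alpha chain TPM by genotype and day, as stacked bars with the SD of each share; right, Itgad counts per 100 Itgax counts by library, with mean ± SD of 3. The Itgax share dips to 54.2% in WT and 50.4% in KO on day 8, and the Itgad ratio on day 10 is 0.263 in KO and 0.0344 in WT.

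The markers of other cells moved over the same days. Summed over the list, 8 dendritic cell markers went from 1328 to 1947 CPM in WT on day 7 to 3784 to 5804 on day 10, and 9 macrophage markers from 2007 to 2278 down to 1296 to 1332. In KO on day 10 the dendritic cell sum was 3152 to 7199 CPM, overlapping WT, and the macrophage sum was 1327 to 1754, where its lowest library lay just under the highest WT library. Of all genes, 11.9%, 4.4%, 7.62% and 5.47% were higher in KO without overlap on days 7 to 10, and 14.2% lower on day 7. Of the 9 macrophage markers, 3 were higher in KO without overlap on day 10: Fcgr1 at 83.3 to 110.0 against 65.7 to 72.6 CPM, C1qa at 85.3 to 99.3 against 51.8 to 81.7, and C1qb at 254 to 306 against 211 to 250.8. On day 8 only Fcgr1 of these 9 was, by a near tie of 116.21 CPM in the lowest KO library against 116.2 in the highest WT library. On day 9 none of them was. On day 7 Adgre1 and Fcgr1 were higher and Vsig4 lower without overlap, and Fcgr1 at 121 to 134 against 83.9 to 97.7 CPM passed (edgeR adjusted p = 0.0204). Timd4 was at 0 in all day 10 libraries, and Vsig4 at 0 in WT and at most 0.0590 CPM in KO. Of 8 dendritic cell markers, Flt3, Ciita and Ccr7 were higher in KO without overlap on day 7 and Ccr7 and Cd86 on days 8 and 9, with Ccr7 at 47.3 to 110.4 CPM on day 9 against 28.9 to 33.9 in WT. For Flt3 this was a near tie at a low level, with 1.676 CPM in the lowest KO library and 1.669 in the highest WT library. Of 5 monocyte markers, Vcan was higher without overlap on days 7, 9 and 10, at 77.2 to 115 CPM on day 9 against 48.7 to 59.5. Of 4 mast cell and basophil markers, 3 were higher in KO without overlap on day 9, and the list summed to 77.1 to 98.9 CPM against 52.4 to 65.3 in WT. On day 10 the neutrophil markers summed to 4023 to 5900 CPM for WT libraries and 2853 to 4777 for KO libraries, which overlapped. On day 7 the higher values were in KO, at 2243 to 5844 CPM against 1670 to 3282 in WT, also with overlap. Of the 9 neutrophil markers, 0 were higher and 0 lower in KO without overlap on each of the 4 days. The part of these shifts in the members' changes was not tested, and in bulk libraries fewer cells of a type and less RNA per cell cannot be told apart.

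Of 21 other integrin subunit genes 17 were tested, and 0 passed in KO against WT with edgeR on any day (5, 2, 0 and 0 at an unadjusted p under 0.05 on days 7 to 10; DESeq2 called 1 on day 7, limma 0). Of all genes 1.45%, 0.00688%, 0.00688% and 0.0138% passed on these days, so a count of 0 among 17 is near the background. From day 7 to day 10, 3 rose and 10 fell in WT, with a median log2 fold change of -0.87 against -0.02 for all genes, and 3 rose and 8 fell in KO, with a median of -0.59 against 0.00; of all genes 37% passed in WT and 36.8% in KO. Itgae, the CD103 chain of mucosal dendritic cells, rose most: from 0.453 to 11.9 mean CPM in WT and from 0.882 to 15.8 in KO (log2 fold change 4.69, SE 0.92, and 4.17, SE 0.84). Itgb7, the beta chain that pairs with it, rose by 1.60 in WT and 0.75 in KO, and the collagen receptor chain Itga1 by 0.73 and 0.46. The laminin receptor chain Itga6 fell by 1.79 in WT and by 1.80 in KO, and Itga2b and Itgb3, the 2 chains of the fibrinogen receptor of platelets, fell by 1.58 and 1.48 in WT and by 1.80 and 1.86 in KO.

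Ligands of the beta2 integrins gave 0 calls in KO against WT with edgeR on any day, among 7 tested of 9. Of all genes 1.45%, 0.00688%, 0.00688% and 0.0138% passed on days 7 to 10, so this count of 0 is near the background. At an unadjusted p under 0.05 the ligand counts were 1, 1, 1 and 2, while DESeq2 called 1 on day 7 and limma 0. From day 7 to day 10, Icam1, the main ligand of LFA-1, rose from 93.6 to 147 mean CPM in WT and from 103 to 159 in KO. Thy1 rose and Vcam1, a ligand of CD11d besides VLA-4, fell in both, Vcam1 by 2.98 in WT and by 1.91 in KO on the log2 scale. These 3 were all that passed of the 7 tested in either genotype, near the 37% of all genes in WT and 36.8% in KO. Of 28 activation and signalling genes, 0 passed in KO against WT with edgeR, also near the shares of all genes given for this contrast. Their unadjusted counts were 5, 2, 3 and 2, while DESeq2 called 1 on day 7 and limma 0. Over days 7 to 10, 4 rose and 11 fell in WT, where 37% of all genes passed, and 4 rose and 12 fell in KO, where 36.8% did. Parvg, Rassf5 and Flna were the largest rises, and Parvb, the adaptor Fyb and the signalling adaptor Tyrobp the largest falls, in both genotypes.

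By likeness of log2 CPM over the 24 libraries, the nearest genes to Itgad among 10621 were Arhgap22 (r = 0.83), Epb41l3 (0.80) and Cgnl1 (0.78). Itgal was nearest to Fam129a (0.92), Rab11fip1 (0.89) and Spata13 (0.88), and Itgam to AW209491 (0.94), Cndp2 (0.93) and Gusb (0.93). Itgax was nearest to Ak1 (0.91), Myrf (0.86) and Ccbe1 (0.86). Genes near Itgb2 included Creb3l1 (0.97) and Cd22 (0.96). Between members r was 0.48 for Itgax and Itgb2, -0.54 for Itgal and Itgam, and -0.21 for Itgad and Itgax. All points share the 24 libraries and their scaling, and over the 8 group means only Creb3l1 for Itgb2 was again among the 3 nearest.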

How the data were processed

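Polyadenylated RNA was sequenced from 24 BMDC libraries. The authors deposited whole-number counts per gene and TPM values for 55487 genes, with an annotation table; aligned with STAR 2.6.1 to mm10, per the submitters' processing notes, which also list FastQC 0.11.9 and DESeq2 1.22.2. The counter, its strand setting and the annotation are not given in the sources used here. Of the identifiers, 55094 matched GENCODE M21 with version.

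Groups came from the genotype and day labels. Counts were fitted with edgeR 4.0.16 (R 4.3.3; TMM, filterByExpr, quasi-likelihood, 8 group coefficients, 16 residual degrees of freedom), leaving 14535 genes, with two-sided Benjamini-Hochberg adjusted p under 0.05 over all of them. Alternatives used DESeq2 1.42.0, limma 3.58.1, filters, covariates and left-out mice; dropping the libraries with Ddx3y above Xist was added after seeing the data. The procedure was also run on simulated counts, the outcome of which is not given here. Intervals use 16 degrees of freedom. Likeness was Pearson's r of log2 CPM (prior count 2).

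The members, lists and rules were chosen with earlier results of these data known. Named genes were the members, Arpc4, tested genes within 300 kb of Itgax, the 3 nearest by r, and the 3 largest changes per direction in each list. One gene that this rule names is not reported here. Same-numbered libraries deviated together in WT (18 of 18 pairs above 0.1, mean r 0.49) but not in KO (7 of 18, mean -0.0046). Labels give 3 mouse numbers per genotype, the same on every day, and 2 library kits, not assigned to libraries; leaving out a KO number or blocking on it does not follow an animal. Libraries of 19952047 to 31049798 counts carry little counting error for all members but Itgad.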

Additional observations from a re-analysis of the deposited data

How the results depend on the processing

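Calls for Itgad and Itgb2 from day 7 to day 8 kept direction and side in every alternative run (Itgad has no value at 50 counts on average, where it drops out). Of 1025 values of the member comparisons under alternatives, other than KO against WT on day 10, 64 reversed. Of these, 39 reversed when a mouse number was left out, and 0 had a call in either analysis. The 1025 include the changes of Itgad into day 10, which are given without a test. Of 79 values under alternatives for KO against WT on day 10, also given without a test, 10 had another sign. Of those, 6 were with a mouse number left out. With the mouse number as a replicate block no member call changed; genes passing went from 211 to 145 for KO against WT on day 7, and calls around Itgax from day 7 to day 10 in WT from 8 to 5. The causes were not tested.

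On log2(TPM + 1) and log2(TPM + 0.1), sign flips were Itgam in KO against WT on day 7 (0.0228 and 0.0229) and day 8 (0.0249 and 0.0250), Itgal and Itgax from day 7 to 8 in KO (0.199 and 0.202, 0.0360 and 0.0361), and Itgal and Itgam from day 8 to 9 in KO (0.0267 and 0.0269, 0.00193 and 0.00192). For the difference of the day 7 to day 8 change, Itgad was -0.038 on log2(TPM + 1) and Itgam -0.0035 with DESeq2 size factors, -0.0070 with only the libraries compared and -0.0035 with the Wald test; for day 9, Itgax was -0.00197 with only the libraries compared. In the 16 libraries with Xist above Ddx3y, KO against WT on day 10 was -0.259 for Itgam (0.0741 in all), 0.162 for Itgal (-0.0293) and -0.507 for Itgax (-0.157); Itgal was 0.0316 and 0.0315 there on the TPM scales. In the same 16, Itgam was -0.167 for KO against WT on day 9 and -0.031 from day 7 to 10 in KO, Itgax -0.139 and Itgb2 -0.091 from day 9 to 10 in KO, Itgad -0.0145 for the day 8 difference, and Itgam -0.108, Itgax -0.0189 and Itgb2 -0.0188 for the day 9 difference.

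Members called moved as follows. KO against WT on day 9 had 1 with no filter, with Xist as a covariate and with the Wald test. Day 8 to 9 in WT had 2 with only the libraries compared and 0 in the 16 libraries, and day 9 to 10 in WT had 2 with only the libraries compared. Day 7 to 10 in WT, where Itgad counts through the day 10 libraries that chose it, had 2 (no filter, Xist, the 16 libraries), 0 (at least 50 counts), 3 (only the libraries compared) and 4 (both TPM scales). Day 8 to 9 in KO had 1 (no filter, Wald, both TPM scales), and day 7 to 10 in KO 1 (no filter, the 16 libraries) and 2 (both TPM scales). For KO against WT on day 7, other subunits and ligands had 1 each with no filter, the Wald test and the 16 libraries, activation genes 1 with the Wald test, and genes around Itgax 0 at 50 counts. From day 7 to 10, ligands in WT had 5 on both TPM scales, activation genes in KO 8 with only the libraries compared, genes around Itgax in WT 4 (no filter, the 16 libraries, within 100 kb) and in KO 3 (50 counts), 2 (only the libraries compared, within 100 kb) and 8 (both TPM scales). By CPM the median share was 7.88% for Itgal and 59.6% for Itgax, against 5.99% and 61.7% by TPM. Over group means, 0 of the 3 nearest genes recurred for Itgal, Itgam, Itgax and Itgad and 1 for Itgb2.

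Leaving out each mouse number in turn gave these ranges. KO against WT: Itgam -0.105 to 0.039 (day 7), -0.0709 to 0.0535 (day 8) and -0.140 to 0.156 (day 9), and Itgb2 -0.140 to 0.0077 (day 8). On day 10 Itgal ran from -0.128 to 0.153, Itgam from -0.189 to 0.231, Itgax from -0.392 to 0.0322 and Itgb2 from -0.384 to 0.0057. WT: Itgad -0.542 to 0.116 (day 8 to 9), Itgb2 -0.044 to 0.115 (9 to 10) and Itgam -0.016 to 0.172 (7 to 10). KO by day: Itgal -0.309 to 0.117 (7 to 8), -0.178 to 0.206 (8 to 9), -0.114 to 0.490 (9 to 10) and -0.216 to 0.459 (7 to 10); Itgam -0.156 to 0.0154, -0.713 to 0.0025 and -0.1599 to 0.373 over the last 3 of these; Itgax -0.304 to 0.288 and Itgb2 -0.326 to 0.303 (9 to 10); Itgad -0.047 to 0.302 (7 to 10). Difference of the day 7 to 8 change: Itgal -0.428 to 0.0091, Itgam -0.030 to 0.067, Itgax -0.0071 to 0.1598 and Itgad -0.055 to 1.20; of the day 7 to 9 change: Itgam -0.066 to 0.130, Itgax -0.036 to 0.047 and Itgb2 -0.099 to 0.065. Members called ran from 0 to 1 (WT 8 to 9, WT 9 to 10, KO 9 to 10), 1 to 3 (WT 7 to 10) and 0 to 2 (KO 7 to 10). List calls ran from 0 to 1 for KO against WT (other subunits on days 7 and 8; ligands, activation genes and genes around Itgax on day 7), and from day 7 to 10 from 10 to 15 for activation genes in KO and 2 to 8 in WT and 1 to 5 in KO around Itgax.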
